A study of Sus scrofa with 18 samples.

Results

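Steroid hormones, among them those of the ovary, act on the uterine muscle through a small set of receptor proteins. The 9 genes described here encode these proteins or partners of them: ESR1, ESR2, PGR, NR3C1, NR3C2, GPER1, PGRMC1, PGRMC2 and FKBP5. They were listed by name, with earlier results of these data known, and no measured value enters the rule. They are 9 of the 19550 protein-coding genes that RefSeq places on the chromosomes of the Sscrofa11.1 pig assembly. For each gene, every peak was taken that lies within the gene or within 3 kb of either end of it.

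The samples came from the mesometrial side of the uterus of Yorkshire gilts on day 15, the implantation stage in pregnant animals, and the age of the gilts is not given in the sources used here. The endometrium was removed before the muscle layers were separated. GD15M_CM is the inner circular muscle and GD15M_LM the outer longitudinal muscle of pregnant gilts, and CD15M_CM is the circular muscle of gilts in the oestrous cycle, none of them carrying a transgene or given a treatment. CUT&Tag libraries, in which an antibody directs the cutting of chromatin, were made for H3K4me3, H3K27ac and an IgG control from 2 gilts per group, which gave 18 libraries. The gilts of a group were pooled before peaks were called, so there is 1 peak list per mark and tissue. These lists give no spread between animals and allow no test between tissues. The authors did test regions between tissues with the DiffBind software, and that test is not used here. Between the circular muscles it gave far fewer differing regions for H3K27ac than for H3K4me3.

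H3K4me3 marks the promoters of genes that are transcribed or ready to be, and H3K27ac marks active promoters and enhancers. ESR1 and ESR2 are the nuclear receptors of oestrogens, PGR that of progesterone, NR3C1 that of glucocorticoids and NR3C2 that of mineralocorticoids, and each binds DNA once its hormone is bound. In the myometrium progesterone is known to keep the muscle quiet through pregnancy, while oestrogen favours contractility towards birth.

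Each peak carries a fold enrichment, which is the ratio of the mark over IgG. Whether it is taken at the summit or averaged over the peak is not given in the sources used here. Because the lists differ in their number of peaks, a peak is described by its percentile. This is where its fold enrichment ranks among all peaks of the same list, and percentile 0 stands for no peak. For H3K4me3 the GD15M_CM list held 33599 peaks, the GD15M_LM list 31910 and the CD15M_CM list 36331. The H3K27ac lists held 79877, 57010 and 82037 peaks in the same order, so the longitudinal muscle had the shortest list. All 8 smooth muscle markers, among them MYH11 and ACTA2, had a peak at a gene end in all 6 lists. Of all protein-coding genes, between 69.1% and 72.3% had such a peak, depending on the list. The 9 receptor genes together held 34, 22 and 29 H3K4me3 peaks and 104, 36 and 76 H3K27ac peaks in GD15M_CM, GD15M_LM and CD15M_CM.

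H3K4me3 was found in 8 of the 9 genes in every tissue, and the exception was ESR2. The highest H3K4me3 peaks belonged to NR3C1 in both pregnant layers and to FKBP5 in the cyclic circular muscle. Over all protein-coding genes, the share with an H3K4me3 peak in the gene or its 3 kb surroundings was 73.7% in GD15M_CM, 74.6% in GD15M_LM and 75.4% in CD15M_CM. H3K27ac was found in 8 of the 9 genes in GD15M_CM and in all 9 in the other tissues, against 73.9%, 73.1% and 75.8% of all genes.

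Some of these genes carried their strongest mark far from the ends of the gene model. Within 3 kb of an end, H3K4me3 was found in 7 of the 9 genes in every tissue, with ESR2 and NR3C1 lacking it, while 70.6%, 71.5% and 72.3% of all genes had such a peak in GD15M_CM, GD15M_LM and CD15M_CM. H3K27ac was found there in 8 of the 9 genes in every tissue, against 70.1%, 69.1% and 71.9% of all genes. The gene without it was ESR2 in GD15M_CM and NR3C1 in GD15M_LM and CD15M_CM. The gene models were used without strand or exons, so an end may be the start or the finish of a gene, and a peak inside a gene could not be assigned to an intron or an exon.

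**Figure D1:**
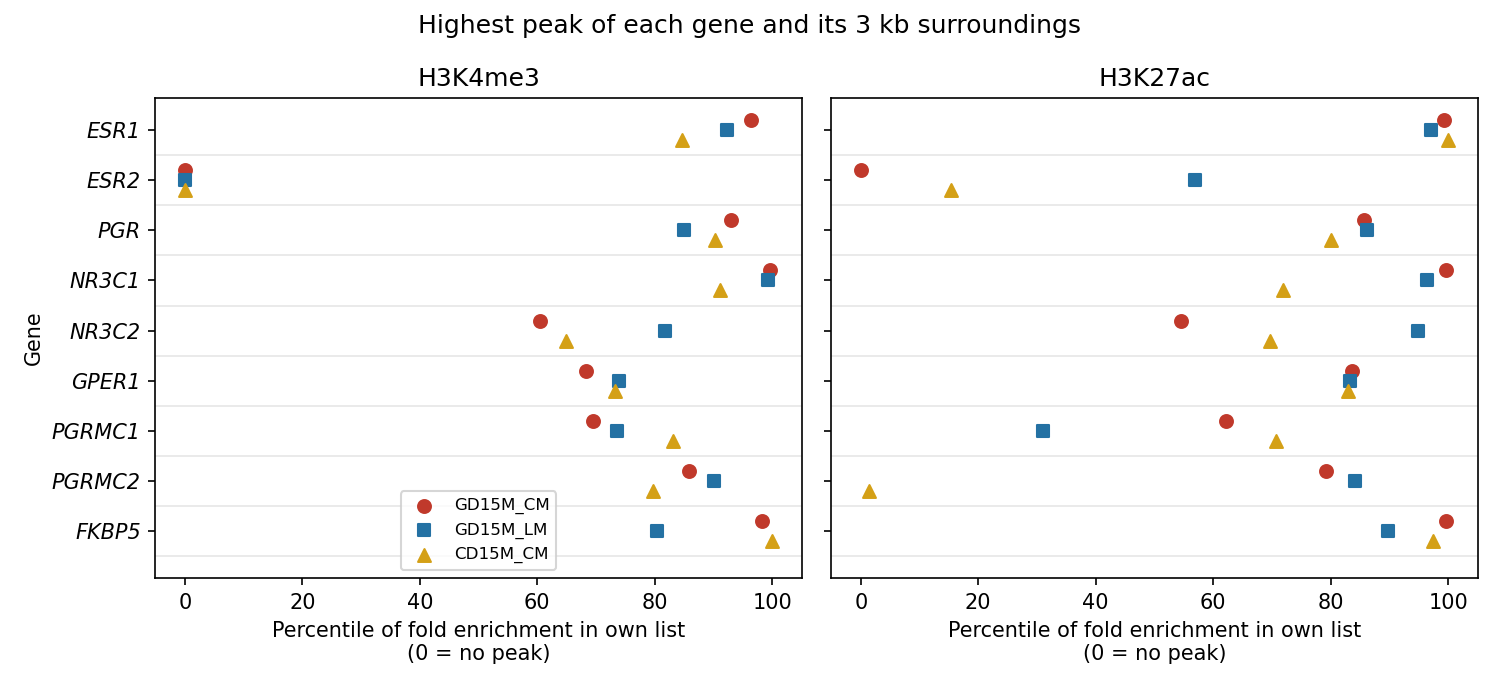
The horizontal axis is the percentile, within its own list, of the highest peak of each gene and its 3 kb surroundings, with 0 for no peak, and each point is 1 tissue. For H3K27ac, GPER1 has its 3 points together between 82.9 and 83.6, while those of PGRMC2 lie at 79.3, 84.1 and 1.45 and those of NR3C2 at 54.6, 94.9 and 69.7.

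ESR1, the main oestrogen receptor of the uterus, lies on chromosome 1 from 14217032 to 14604906 and is the longest of the 9 genes, at 387.875 kb and 15 RefSeq transcripts. Its main H3K4me3 domain did not lie at either end but inside the gene, between 267.1 and 277.3 kb from the low-coordinate end. The longest H3K4me3 peak there spanned 3638 bp (GD15M_CM), 4145 bp (GD15M_LM) or 5977 bp (CD15M_CM). The highest H3K4me3 fold enrichment in the gene was 25.6 in GD15M_CM (percentile 96.4), 27.3 in GD15M_LM (92.2) and 21.1 in CD15M_CM (84.7). A second, lower H3K4me3 peak lay within 3 kb of the high-coordinate end in all 3 tissues, with percentiles of 72.6, 59.4 and 72.7. Both places were thus marked in every tissue, and the inner one stood higher in the ranking throughout.

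In circular muscle H3K27ac covered far more of ESR1 than H3K4me3 did. In GD15M_CM 51 H3K27ac peaks covered 32.875 kb of the gene and its surroundings, in GD15M_LM 15 peaks covered 13.587 kb and in CD15M_CM 39 peaks covered 32.612 kb. By number of H3K27ac peaks ESR1 ranked 63 among the 19550 genes in GD15M_CM, 137 in CD15M_CM and 433 in GD15M_LM. The highest of them reached a fold enrichment of 8.62 in GD15M_CM (percentile 99.4), 7.91 in GD15M_LM (97.0) and 10.0 in CD15M_CM (99.9). These peaks were centred 273.683, 268.928 and 268.928 kb from the low-coordinate end, which is in the H3K4me3 domain. The highest peak was therefore high in all 3 lists, and the tissues differed in how many lower peaks surrounded it. They also differed within the domain. At 14488923-14492440, which holds the highest peak of GD15M_CM, the percentile was 99.4 in GD15M_CM, 74.1 in GD15M_LM and 94.6 in CD15M_CM. At 14485572-14486348, which holds that of the other tissues, it was 99.0, 97.0 and 99.9 in the same order.

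When overlapping peaks of the 3 tissues were joined, ESR1 had 61 H3K27ac regions. Of these, 12 were found in all 3 tissues, 14 in both circular muscles and not in the longitudinal muscle, 22 only in GD15M_CM, 12 only in CD15M_CM, 1 in GD15M_LM and CD15M_CM, and none only in GD15M_LM. The regions of all 3 tissues had a median length of 1251 bp, those of both circular muscles 647.5 bp and those of GD15M_CM alone 323.5 bp. The regions limited to 1 list were thus the short ones, and the highest percentile among those of GD15M_CM alone was 85.6. One of the 14 regions of both circular muscles lay at 14475753-14476399, with percentile 92.2 in GD15M_CM and 6.39 in CD15M_CM. Another lay at 14557719-14559457, with percentile 68.4 in GD15M_CM and 82.4 in CD15M_CM. A region near the low-coordinate end, at 14228153-14229384, went the other way, with percentiles of 24.9 in GD15M_CM, 92.1 in GD15M_LM and 79.8 in CD15M_CM.

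**Figure D2:**
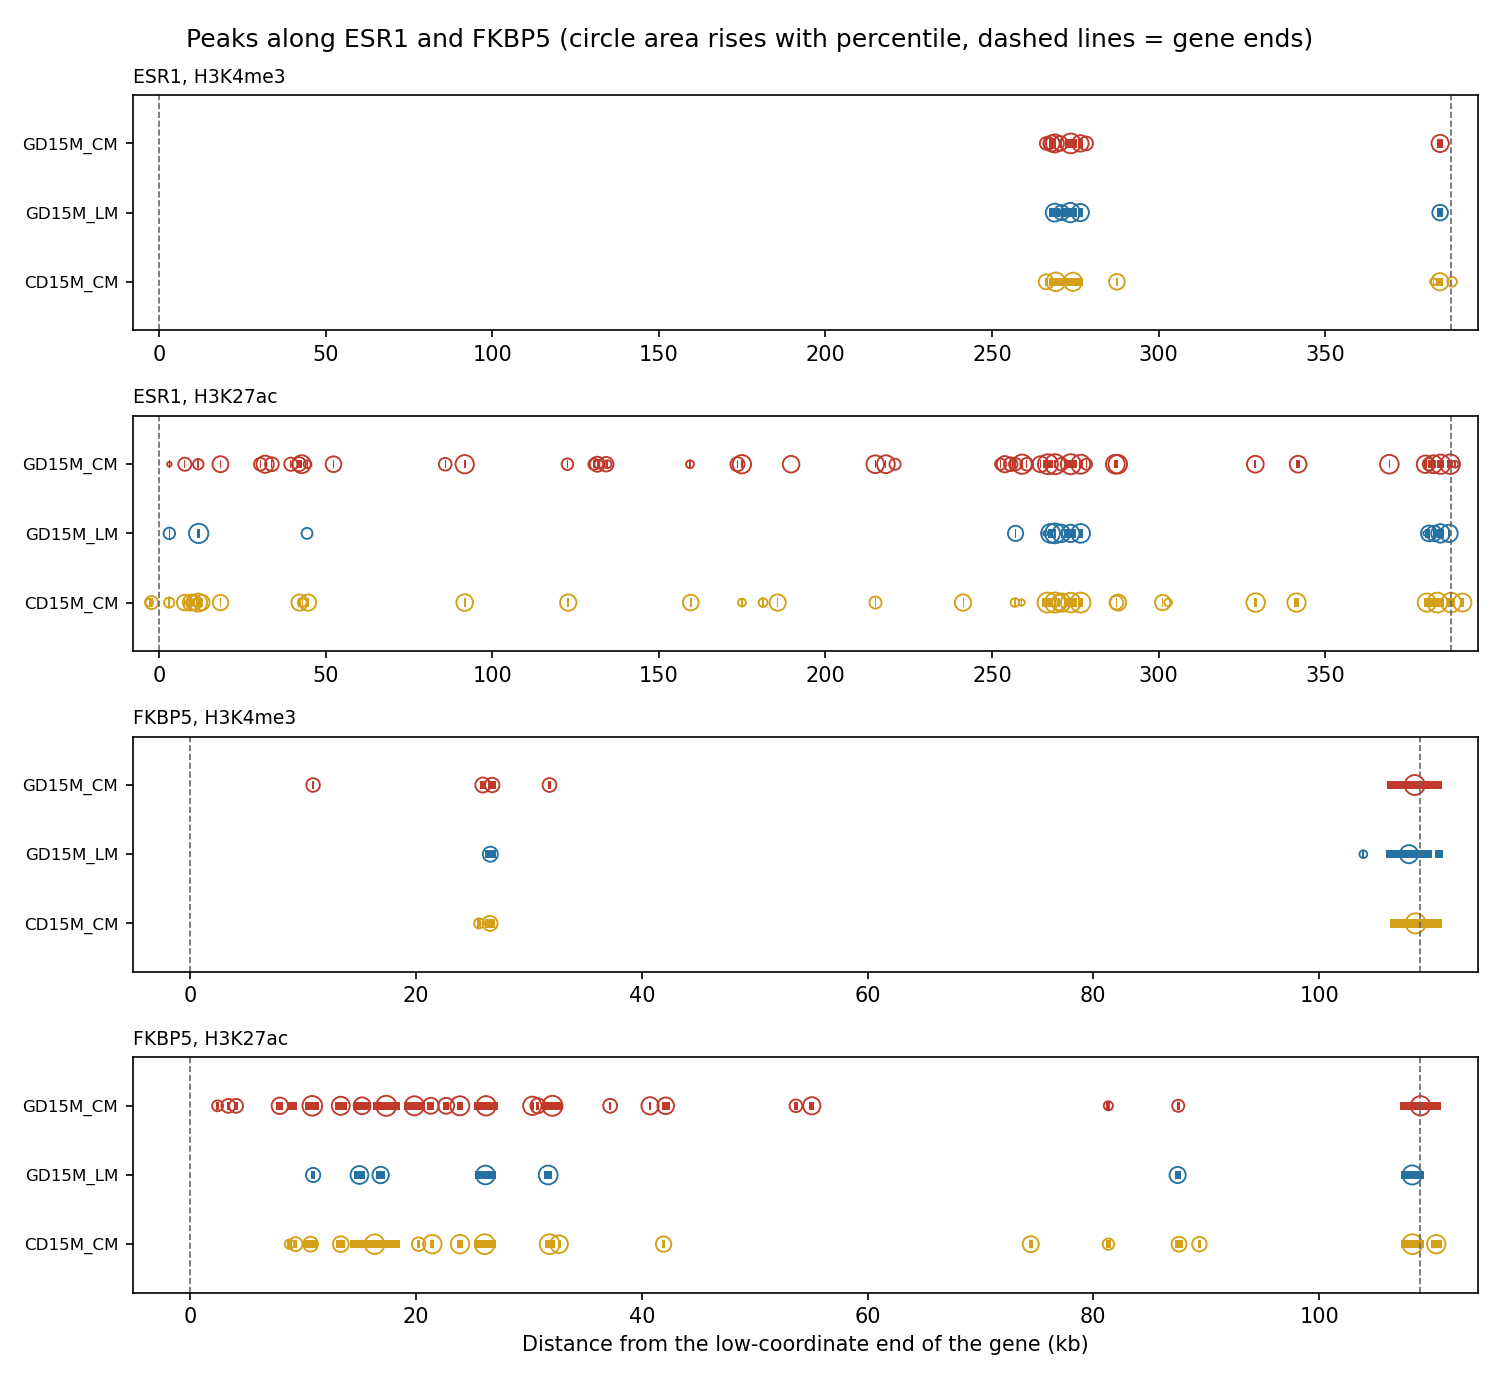
Peaks of both marks along ESR1 and FKBP5 are drawn by their distance in kb from the low-coordinate end of the gene, with bars for the peaks, circles whose area rises with the percentile, and dashed lines for the gene ends. The 51 H3K27ac peaks of ESR1 in GD15M_CM and the 39 in CD15M_CM are spread over the whole gene, whereas the 15 of GD15M_LM leave long stretches without a peak.

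ESR2, the second oestrogen receptor, had little of either mark. It lies on chromosome 1 from 193823666 to 193907330 and had no H3K4me3 peak in any tissue. H3K27ac was absent from the GD15M_CM list, reached a fold enrichment of 4.01 over 510 bp in GD15M_LM (percentile 56.8) and 2.72 over 202 bp in CD15M_CM (percentile 15.3). Both of these highest peaks lay within 1 kb inside the low-coordinate end, and the neighbouring gene SYNE2 lies beyond the opposite end.

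PGR, the progesterone receptor, lies on chromosome 9 from 32035684 to 32129776 and had its main domain of both marks at the high-coordinate end. The H3K4me3 peak there spanned 4185 bp in GD15M_CM, 5031 bp in the longitudinal and 4233 bp in the cyclic muscle. In that order its fold enrichment was 22.3, 22.5 and 25.01, which corresponds to percentiles of 92.9, 84.9 and 90.3. The tissues thus lay within 10 percentile points of each other.

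For H3K27ac, PGR had 10 peaks in GD15M_CM and 5 in each of the other tissues. The highest reached a fold enrichment of 4.93 in GD15M_CM (percentile 85.6), 5.82 in GD15M_LM (86.2) and 4.58 in CD15M_CM (80.1). In GD15M_CM that highest peak was a short one of 496 bp beyond 3 kb from the end, and the 3153 bp peak at the end had percentile 72.0. The pregnant layers thus differed at the gene end, with 72.0 against 86.2, and not by this measure over the whole gene, where GD15M_CM minus GD15M_LM was -0.594 percentile points. Of the 10 joined H3K27ac regions of PGR, 4 were found only in GD15M_CM and 2 in all 3 tissues.

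NR3C1, the glucocorticoid receptor, had the highest H3K4me3 percentile of the 9 genes in both pregnant layers. It lies on chromosome 2 from 144822937 to 144956451, and like ESR1 it carried its main domain inside the gene model, about 103 to 109 kb from the low-coordinate end. H3K4me3 reached a fold enrichment of 35.9 in GD15M_CM (percentile 99.7), 40.2 in GD15M_LM (99.3) and 25.7 in CD15M_CM (91.2). All 3 values were in the top 10% of their lists, with that of CD15M_CM the lowest.

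In the same domain the H3K27ac peak was 4203 bp long in GD15M_CM, 3735 bp in the longitudinal and 3775 bp in the cyclic muscle. Its fold enrichment was 9.07 in GD15M_CM (percentile 99.6), 7.68 in GD15M_LM (96.4) and 3.69 in CD15M_CM (56.6). In the same order the −log10 of the peak's p-value was 24.4, 19.4 and 8.23, so both measures put cyclic muscle lowest while the length of the peak was close to that in GD15M_LM. In CD15M_CM another peak of the gene ranked higher, a 362 bp peak 66.6 kb from the low-coordinate end with percentile 71.9. Even by that peak, NR3C1 stood 27.6 percentile points lower in CD15M_CM than in GD15M_CM.

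At NR3C2, the mineralocorticoid receptor, the longitudinal muscle stood far above both circular muscles. The gene lies on chromosome 8 from 80303172 to 80669050, and both marks formed 1 long peak across its low-coordinate end. The H3K4me3 peak was 4874 bp long in GD15M_CM, 5270 bp in the longitudinal and 5018 bp in the cyclic muscle, and its fold enrichment was 6.92 (percentile 60.5), 20.7 (81.8) and 9.18 (64.9). The H3K27ac peak was 4475, 4294 and 4430 bp long, with a fold enrichment of 2.08 (percentile 0.627), 7.21 (94.9) and 2.60 (10.8). In both marks the longitudinal muscle was highest, the pregnant circular muscle lowest and cyclic circular muscle close to the latter, although the length of the peaks was nearly the same. Of the 3 H3K27ac peaks, the one of GD15M_LM passed a fold enrichment of 5 and a −log10 p of 10.

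Long peaks with so low a rank were uncommon. Among H3K27ac peaks of at least 3 kb, 61 of 2667 in GD15M_CM (2.29%), 26 of 1974 in GD15M_LM (1.32%) and 67 of 3183 in CD15M_CM (2.10%) lay below the 15th percentile, and the NR3C2 peaks of both circular muscles were among them. By the length of the peak NR3C2 lay between the 98.7th and the 99.0th percentile in all 3 H3K27ac lists. The lists thus differed at NR3C2 in the fold enrichment recorded and little in the length of the peak. A long non-coding gene, LOC110261980, overlaps the same end.

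**Figure D3:**
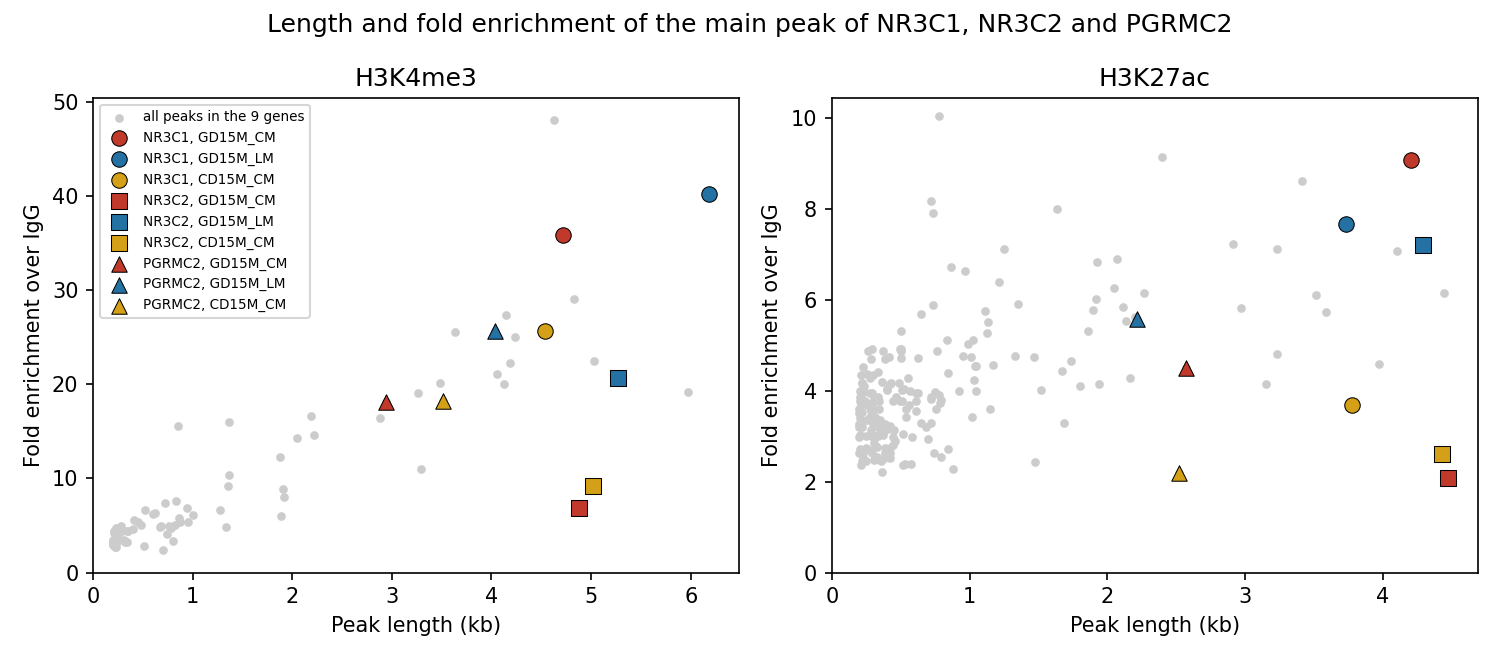
Fold enrichment over IgG is plotted against peak length in kb for all peaks of the 9 genes in grey, with the longest peak of NR3C1, NR3C2 and PGRMC2 in each tissue in colour. In the H3K27ac panel the 3 NR3C2 squares share a length of 4.29 to 4.48 kb and lie at 2.08, 2.60 and 7.21, and the NR3C1 circle of CD15M_CM lies at 3.69 below the other two.

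GPER1, a membrane receptor that responds to oestrogen, varied little between tissues in its highest peaks. It lies on chromosome 3 from 711427 to 715982, inside the gene C3H7orf50, so its peaks cannot be separated from those of its host. H3K4me3 reached a fold enrichment of 10.3 in GD15M_CM (percentile 68.3), 16.6 in GD15M_LM (73.9) and 14.6 in CD15M_CM (73.3). H3K27ac reached 4.75, 5.52 and 4.76, with percentiles of 83.6, 83.4 and 82.9. Beyond the high-coordinate end a second H3K27ac peak had percentile 6.43 in GD15M_CM, 59.1 in GD15M_LM and 74.0 in CD15M_CM, and was thus lower in the pregnant circular muscle than in the other tissues.

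PGRMC1 and PGRMC2 encode membrane-bound proteins that bind haem and are linked to non-genomic effects of progesterone. PGRMC1 lies on chromosome X from 97735402 to 97743424, and its H3K4me3 peak at the low-coordinate end had a fold enrichment of 11.0 in GD15M_CM (percentile 69.5), 16.4 in GD15M_LM (73.6) and 20.2 in CD15M_CM (83.2). H3K27ac reached 3.78 (percentile 62.3), 3.30 (31.0) and 4.14 (70.6). H3K4me3 was thus highest in cyclic muscle, and H3K27ac lowest in the longitudinal muscle. The highest H3K27ac peak of GD15M_CM was 303 bp long and the longest there, of 790 bp, had percentile 9.71, against single peaks of 1686 bp in GD15M_LM and 1940 bp in CD15M_CM over the same end.

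PGRMC2 lies on chromosome 8 from 96692823 to 96710218. Its H3K4me3 peak had a fold enrichment of 18.1 in GD15M_CM (percentile 85.9), 25.7 in GD15M_LM (90.1) and 18.3 in CD15M_CM (79.8), over 2941, 4038 and 3514 bp. Its single H3K27ac peak was 2571, 2213 and 2520 bp long and reached 4.49 (percentile 79.3), 5.58 (84.1) and 2.19 (1.45). PGRMC2 thus had H3K27ac high in the ranking in both pregnant layers and near the bottom of the list in cyclic muscle, a gap of 77.8 percentile points between pregnant and cyclic circular muscle. The −log10 of its p-value was 10.5, 18.5 and 4.25. Neither circular muscle peak passed a fold enrichment of 5 together with a −log10 p of 10, so under that threshold the gap between them ended, at percentile 0 against 0. The GD15M_LM peak passed it with percentile 22.8. The long non-coding gene LOC102166663 overlaps the end at which this peak lies.

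FKBP5 encodes a co-chaperone that holds glucocorticoid and progesterone receptors in a state of low hormone affinity, and it is a well-known target of the same receptors. It lies on chromosome 7 from 31441764 to 31550704 and had its H3K4me3 domain at the high-coordinate end. Fold enrichment there was 29.0 in GD15M_CM (percentile 98.2), 20.01 in GD15M_LM (80.4) and 48.1 in CD15M_CM (99.9), over 4831, 4122 and 4629 bp. Both circular muscles were thus in the top 2% of their lists and the longitudinal muscle was not. A lower H3K4me3 region 25.4 kb from the low-coordinate end was found in all 3 tissues, with percentiles between 54.5 and 55.4.

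H3K27ac along FKBP5 comprised 25 peaks over 22.39 kb in GD15M_CM, 7 peaks over 7.408 kb in GD15M_LM and 18 peaks over 16.498 kb in CD15M_CM. At the high-coordinate end its percentile was 92.4, 89.8 and 97.5, so there the layers were close. The highest H3K27ac peak of GD15M_CM lay elsewhere, 17.4 kb from the low-coordinate end, with a fold enrichment of 9.15 (percentile 99.6). In the joined region around it, from 31455871 to 31460320, GD15M_LM reached a fold enrichment of 5.03 (percentile 77.7) and CD15M_CM 6.14 (94.8). Of the 26 joined H3K27ac regions of FKBP5, 6 were found in all 3 tissues, 7 in both circular muscles, 11 only in GD15M_CM, 2 only in CD15M_CM and none only in GD15M_LM. The 11 regions of GD15M_CM alone had a median length of 287 bp and the 6 common ones 1891 bp. LOC110261510 and LOC110261509 lie within the same window.

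**Figure D4:**
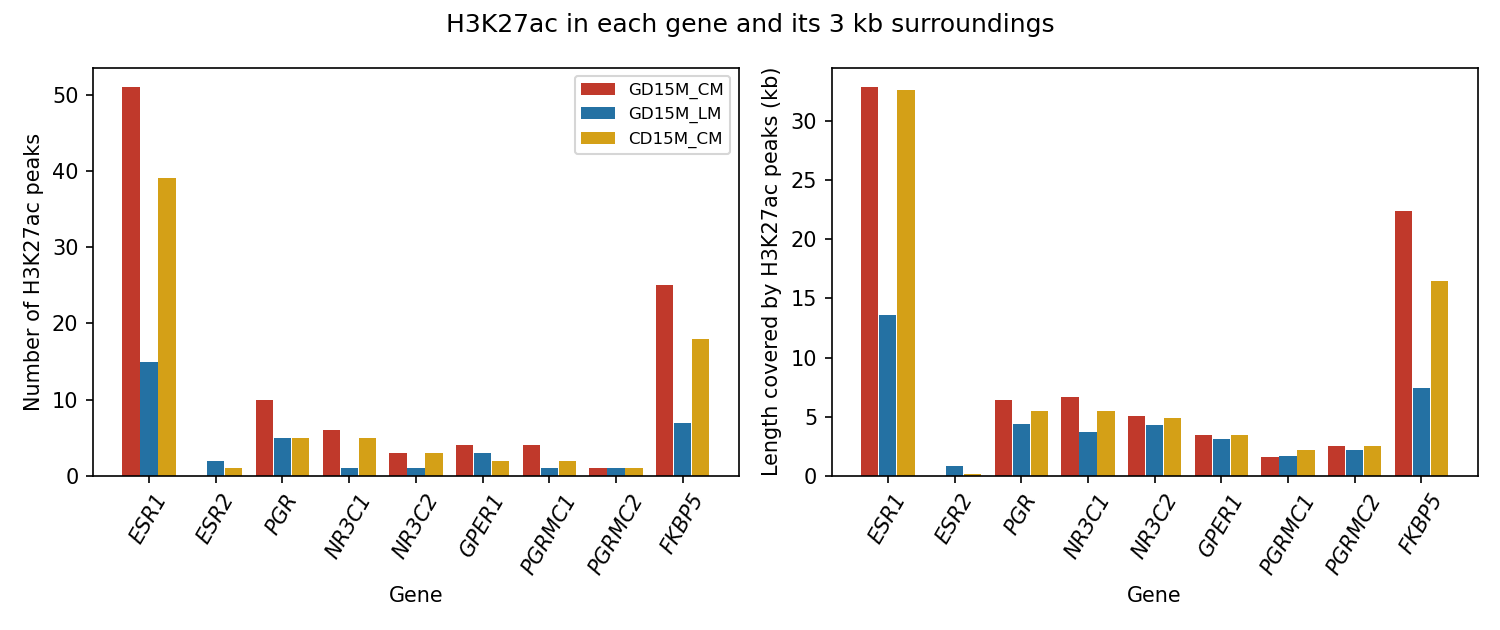
Bars give, for each gene and its 3 kb surroundings, the number of H3K27ac peaks and the length in kb that they cover in each tissue. ESR1 (51, 15 and 39 peaks) and FKBP5 (25, 7 and 18 peaks) hold most of the peaks, and in both the longitudinal muscle has the fewest.

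To ask how pregnancy relates to the marks in the circular muscle, GD15M_CM was set against CD15M_CM. A gene is called here where its highest peak differs by at least 10 percentile points between the lists. Of the 8 genes with H3K4me3, ESR1 was higher in GD15M_CM (96.4 against 84.7) and PGRMC1 in CD15M_CM (83.2 against 69.5), while over all genes 11.9% were called higher in GD15M_CM and 23.1% higher in CD15M_CM. For H3K27ac, NR3C1 and PGRMC2 were higher in GD15M_CM and ESR2 and NR3C2 in CD15M_CM, 4 of 9 genes, beside 24.6% and 25.4% of all genes. The call of NR3C2 rests on small peaks inside the gene, with percentiles of 54.6 and 69.7. The median difference, GD15M_CM minus CD15M_CM, was 0.479 percentile points for H3K4me3 and 0.611 for H3K27ac, against -2.04 and -0.0499 over all genes. The numbers of members called were thus close to the background shares.

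Restricted to the gene ends, 1 of 7 members was called for H3K4me3 (PGRMC1) against 35.6% of all genes in either direction, and 4 of 9 for H3K27ac against 54.5%. The 4 were NR3C1 and PGRMC2, higher in GD15M_CM, and ESR2 and NR3C2, higher in CD15M_CM. At NR3C1 the call rested on 1 peak of 280 bp in GD15M_CM with percentile 15.4.

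To compare the muscle layers in pregnancy, GD15M_CM was set against GD15M_LM. For H3K4me3, FKBP5 was higher in GD15M_CM (98.2 against 80.4) and NR3C2 in GD15M_LM (81.8 against 60.5), beside 20.3% and 19.3% of all genes in these directions. For H3K27ac, PGRMC1 was higher in GD15M_CM, and ESR2 and NR3C2 were higher in GD15M_LM, beside 32% and 21.6% of all genes. The call of PGRMC1 rests on a peak of 303 bp in GD15M_CM with percentile 62.3. The longest PGRMC1 peak of GD15M_CM had percentile 9.71, below the 31.0 of GD15M_LM. FKBP5 missed the 10 points for H3K27ac by little, at 99.6 against 89.8. At the gene ends, 3 of 7 members were called for H3K4me3, with ESR1 added to FKBP5 and NR3C2, against 40.1% of all genes. For H3K27ac 6 of 9 were called there against 56.9%: ESR1, NR3C1 and PGRMC1 were higher in GD15M_CM, and ESR2, PGR and NR3C2 in GD15M_LM.

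Markers of uterine epithelium also differed between the layers. Of 7 placed markers of uterine epithelium, all had an H3K27ac peak at a gene end in GD15M_CM and in CD15M_CM, with a median percentile of 75.0 (range 33.1 to 84.1) and 64.2 (4.75 to 84.8). In GD15M_LM 5 of 7 had one, with a median of 19.8 and a highest value of 42.1, and KRT18 and KRT19 had none. Their H3K4me3 medians were 79.4 in GD15M_CM, 59.0 in GD15M_LM and 78.5 in CD15M_CM. What part epithelial cells have in the layer differences at ESR1, FKBP5 and the other members was not tested, and in bulk tissue fewer cells of a type and less mark per cell cannot be told apart. Of the endothelial markers, 3, 3 and 1 of 6 had an H3K27ac peak at a gene end in GD15M_CM, GD15M_LM and CD15M_CM, and 4 of 6 in each tissue had one over the whole gene. Of the macrophage and B cell markers 3, 4 and 4 of 6 had one at an end and 5 of 6 over the whole gene. The 3 placed mesothelial markers had one at an end in every tissue, with medians of 70.4, 54.6 and 82.3.

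T cell markers also differed between the lists, and their part in the results was not tested. Of 5 placed, 3 had an H3K27ac peak at a gene end in GD15M_CM (CD2 at percentile 65.4, LCK at 63.6 and CD8A at 34.3), and LCK alone had one in GD15M_LM (63.6) and CD15M_CM (52.0). CD3E and CD3D had none in any list. For H3K4me3, 5, 5 and 4 of 5 had a peak at an end, with median percentiles of 66.8, 57.8 and 52.6 in the same order.

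GD15M_LM and CD15M_CM differ in both layer and pregnancy, so these cannot be told apart in this pair. For H3K4me3, NR3C2 and PGRMC2 were higher in GD15M_LM and FKBP5 in CD15M_CM, beside 12% and 24% of all genes. For H3K27ac, ESR2, NR3C1, NR3C2 and PGRMC2 were higher in GD15M_LM and PGRMC1 in CD15M_CM, that is 4 and 1 of 9 beside 21% and 32.4% of all genes. At the gene ends, 4 of 7 members were called for H3K4me3 against 36.7% of all genes, and 5 of 8 for H3K27ac against 57.2%. The 3 comparisons share their lists, so the same value of 1 tissue enters 2 of them.

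Peaks were also compared by position. Of the 104 H3K27ac peaks of the 9 genes in GD15M_CM, 32 were overlapped by at least 1 bp by a GD15M_LM peak (30.8%, 95% Wilson interval 22.7% to 40.2%, counting error only), against 52.2% of the whole list. Seen from the longitudinal muscle, 32 of its 36 peaks were overlapped by a GD15M_CM peak (88.9%, interval 74.7% to 95.6%), against 72.4%. The longitudinal muscle thus had fewer H3K27ac peaks in these genes as called. Its peaks in ESR1 and FKBP5 were all overlapped by a GD15M_CM peak (15 of 15 and 7 of 7). In the other 7 genes 10 of its 14 peaks were (71.4%), near the share of the whole list. ESR1 and FKBP5 supplied 76 of the 104 peaks: 14 of 51 and 7 of 25 were shared with GD15M_LM. In the other 7 genes 11 of 28 were shared (39.3%).

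Between the circular muscles, 60 of the 104 H3K27ac peaks of GD15M_CM were overlapped by a CD15M_CM peak (57.7%, interval 48.1% to 66.7%), against 68.3% of the list. In the opposite direction 57 of 76 were (75.0%, interval 64.2% to 83.4%), against 62.9%. The members were therefore below the list average in one direction and above it in the other. Of the 36 GD15M_LM peaks, 33 were overlapped in CD15M_CM (91.7%), against 85.7%, and 29 of 76 CD15M_CM peaks in GD15M_LM (38.2%), against 56.2%.

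For H3K4me3 the overlaps were high throughout. Of 34 GD15M_CM peaks, 28 were overlapped in CD15M_CM (82.4% against 82% of the list) and 28 in GD15M_LM (82.4% against 75.1%). Of 22 GD15M_LM peaks, 20 were overlapped in CD15M_CM (90.9% against 79.3%) and 19 in GD15M_CM (86.4% against 70.9%). Of 29 CD15M_CM peaks, 22 were overlapped in GD15M_CM (75.9% against 67.4%) and 20 in GD15M_LM (69.0% against 70.3%). The Wilson intervals of the H3K4me3 shares plotted by pair of lists all took in the share of the whole list.

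**Figure D5:**
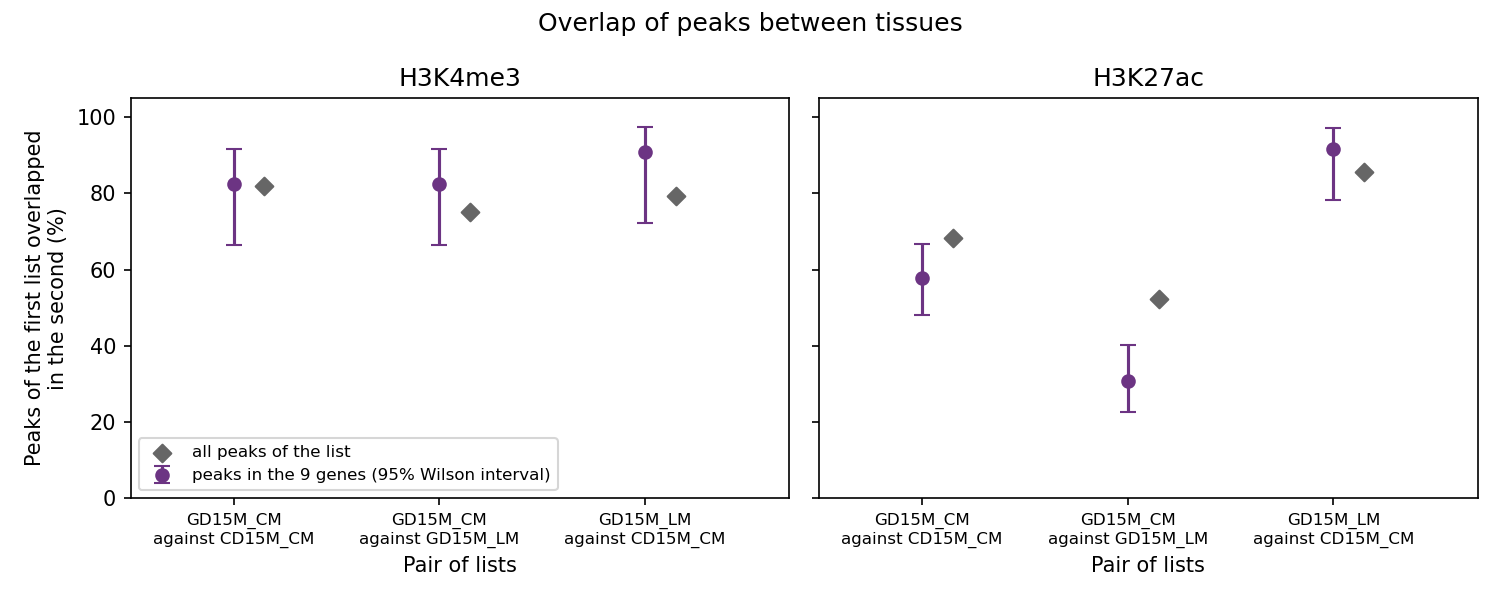
The vertical axis is the percentage of peaks of the first list that are overlapped by a peak of the second, for the peaks of the 9 genes with their 95% Wilson interval and for all peaks of the list. For H3K27ac of GD15M_CM against GD15M_LM the members lie at 30.8% and the whole list at 52.2%, outside the interval. The interval covers counting error only and treats peaks as independent, while 76 of these 104 member peaks lie in ESR1 or FKBP5.

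Joined over the 3 tissues, the 9 genes held 117 H3K27ac regions. Of these, 42 were found only in GD15M_CM (35.9%, against 21.9% of all 104769 regions), 27 in both circular muscles (23.1% against 11.7%) and 26 in all 3 tissues (22.2% against 31.5%). Another 16 were found only in CD15M_CM (13.7% against 20.02%) and 2 only in GD15M_LM (1.71% against 5.46%). Regions of 1 gene are not independent of each other, and 87 of the 117 belonged to ESR1 or FKBP5.

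The number of H3K27ac peaks per gene was set beside the length of the lists. The ratio of GD15M_LM to GD15M_CM was 0.294 for ESR1, 0.28 for FKBP5 and 0.5 for PGR, and 0.714 for the lists as a whole. The ratio of CD15M_CM to GD15M_CM was 0.765 for ESR1, 0.72 for FKBP5 and 0.5 for PGR, and 1.03 for the lists. These 3 were the members with at least 10 H3K27ac peaks in GD15M_CM, a choice that by itself favours low ratios. Over the 1568 genes chosen in this way, the median ratio was 0.615 for GD15M_LM and 0.909 for CD15M_CM. Of those genes, 17.8%, 16.8% and 39.2% had a GD15M_LM ratio no higher than that of ESR1, FKBP5 and PGR. For CD15M_CM these shares were 33.3%, 29.3% and 12.6%, so the 3 genes lay below the medians but were not extreme. With the same number of 57010 top peaks from each list, ESR1 had 33, 15 and 29 peaks and FKBP5 16, 7 and 15 in GD15M_CM, GD15M_LM and CD15M_CM. Under a threshold of at least 10 for −log10 p and at least 5 for fold enrichment, ESR1 kept 7, 4 and 6 peaks and FKBP5 5, 2 and 4. The whole lists kept 9711, 11306 and 10200 peaks in the same order, so the longitudinal list was the longest under this threshold. There PGR, NR3C2, GPER1 and PGRMC2 each kept 1 peak in GD15M_LM and none in either circular muscle. NR3C1 kept 1 in each pregnant layer and none in CD15M_CM.

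Both marks fell on the same places in most of these genes. Of the length covered by H3K4me3 in the 9 genes, 77.6% was also covered by H3K27ac in GD15M_CM, 59.9% in GD15M_LM and 73.8% in CD15M_CM, against 67.3%, 57.9% and 63.6% over the whole lists. Conversely, H3K4me3 covered 26.8% of the H3K27ac length of ESR1 in GD15M_CM, 61.0% in GD15M_LM and 35.4% in CD15M_CM. For FKBP5 these shares were 23.4%, 40.3% and 25.6%. Over the whole lists the share was 47.1%, 57.0% and 46.6%. The shares of ESR1 in the circular muscles and of FKBP5 in all 3 tissues lay below that of the list, and ESR1 in GD15M_LM lay above it. At NR3C2 H3K4me3 covered between 88.3% and 100% of the H3K27ac length.

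The wider pathway was described with 75 genes of steroid hormone action, of which 72 were placed. Percentiles in this description are those within 3 kb of a gene end unless stated otherwise. Between pregnant and cyclic circular muscle, 8 of the 63 genes with an H3K4me3 peak were higher in GD15M_CM (12.7%) and 13 in CD15M_CM (20.6%), beside 12.2% and 23.4% of all genes. For H3K27ac these were 18 and 17 of 61, beside 27.5% and 27% of all genes. Between the pregnant layers, 13 of 63 were higher in GD15M_CM and 11 in GD15M_LM for H3K4me3, beside 20.7% and 19.4%, and 12 each of 61 for H3K27ac, beside 33.3% and 23.7%. Between GD15M_LM and CD15M_CM, 7 and 17 of 61 were higher for H3K4me3, beside 12.2% and 24.5%, and 9 and 15 of 60 for H3K27ac, beside 23.9% and 33.3%. The counts thus lay near or below those of all genes, and the median difference of the list lay between -1.72 and 1.41 percentile points in the 6 comparisons. Over the whole gene and 3 kb, 12 and 16 of 65 were higher for H3K27ac in GD15M_CM and CD15M_CM.

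Among oestrogen target genes, GREB1, a coactivator of the oestrogen receptor, had an H3K4me3 percentile of 80.0 in GD15M_CM, 8.61 in GD15M_LM and 75.1 in CD15M_CM, and over the whole gene 80.0, 27.8 and 76.7. It was thus high in both circular muscles and low in the longitudinal muscle in either window. OXTR, the oxytocin receptor, had no H3K27ac peak in GD15M_CM, percentile 64.6 in GD15M_LM and 73.2 in CD15M_CM, and for CXCL12, a chemokine, the H3K27ac values were 28.8, 49.9 and 83.5. For H3K27ac, 3 of 6 genes of this group with a peak (OXTR, MYC and CXCL12) were higher in cyclic than in pregnant circular muscle and 1 (RARA) lower. Of all genes 27% were higher and 27.5% lower. Over the whole gene 4 of 8 were higher and 1 (GREB1) lower, beside 25.4% and 24.6% of all genes. With so few genes these counts do not set the group apart from all genes.

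Among progesterone target genes, IHH, a signal from epithelium to stroma, had H3K27ac at percentile 57.7 in GD15M_CM and none in GD15M_LM, and H3K4me3 at 37.5 in GD15M_LM against 82.2 in CD15M_CM. CRISPLD2, a secreted protein, had H3K27ac at 72.4 in GD15M_LM and 41.4 in CD15M_CM at the gene ends, but at 89.8 and 91.6 over the whole gene, where the difference turned and was no longer called. Among glucocorticoid target genes, SGK1, a kinase that acts on ion transport, had H3K4me3 at 89.0 in GD15M_CM, 38.6 in GD15M_LM and 91.2 in CD15M_CM at the ends. Over the whole gene its value in GD15M_LM was 84.3, and the difference between the layers was no longer called.

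FOXA2 and FOXA1, pioneer factors that open chromatin for steroid receptors, differed as well, with the same values in both windows. FOXA2, which marks uterine glands, had H3K4me3 at 95.6 in GD15M_CM, 60.3 in GD15M_LM and 71.9 in CD15M_CM, and H3K27ac at 90.6, without a peak, and at 52.8. FOXA1 had H3K4me3 at 6.71 in GD15M_CM, no peak in GD15M_LM and 59.5 in CD15M_CM. FOXA2 and IHH are expressed in uterine epithelium, whose markers moved in the same direction between the layers, and the part of these cells was not tested.

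Among the enzymes that convert steroids, HSD11B1, which regenerates active glucocorticoid, had no H3K4me3 peak at a gene end in GD15M_CM, percentile 44.2 in GD15M_LM and 22.0 in CD15M_CM. Over the whole gene its values were 72.3, 81.1 and 73.1, and no pair of tissues was called. HSD3B1, which makes progesterone from pregnenolone, had H3K27ac at 63.2 in GD15M_CM, none in GD15M_LM and 6.77 in CD15M_CM, and H3K4me3 at 24.7 in GD15M_CM and none in CD15M_CM. HSD17B1, which makes oestradiol, had H3K27ac at 38.7 in GD15M_CM and 92.0 in CD15M_CM. Of the 7 placed chaperones, STIP1 was higher and FKBP4 and PPID were lower in GD15M_CM than in CD15M_CM for H3K27ac, beside 27.5% and 27% of all genes. PPID had 38.8 against 84.7 at the gene ends. Over the whole gene it had 98.5 against 93.6, where the difference turned and was no longer called. For H3K4me3 FKBP4, STIP1 and PPID were higher in GD15M_CM at the gene ends and BAG1 was lower, beside 12.2% and 23.4% of all genes. Over the whole gene PPID had H3K4me3 at 94.9 against 94.6 and was no longer called. HDAC3, a corepressor enzyme, had H3K27ac at 93.9 in GD15M_CM, 96.6 in GD15M_LM and 64.4 in CD15M_CM, and was thus lowest in the cyclic muscle.

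The genes with the pattern most like that of ESR1 and PGR were sought over the 6 percentiles at the gene ends among 16319 named genes. Nearest to ESR1 by Euclidean distance, in percentile points, were SLC35E4 (7.53), FXYD4 (8.87) and LYRM2 (9.92). Nearest to PGR were NOXO1 (5.70), BCR (6.65) and AKAP10 (6.77). In all, 4 genes lay within 10 points of ESR1 and 7 within 10 points of PGR.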

How the data were processed

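Per the submitters' processing notes and methods, CUT&Tag reads were aligned by the authors with BWA (0.7.17-r1188) to Sscrofa11.1, SAMtools (1.9) and Picard (2.8.3) served to drop duplicates and reads of mapping quality below 25, and MACS2 (2.2.6) was run on pooled replicates. The deposited lists hold for each peak its fold enrichment, a ratio of mark over IgG as the authors obtained it, with −log10 of its p-value and q-value. The header names of the latter columns were lost: the column taken as −log10 q never exceeds the other, and was not used. Read depth per library is unknown from the lists.

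Positions are 1-based. Gene ends came from RefSeq without strand, so the 3 kb around either end replaced the planned promoter. Percentiles, overlaps (at least 1 bp) and Wilson intervals were computed in Python 3.11.15 (SciPy 1.17.1, NumPy 2.4.6, pandas 2.3.3). Matplotlib 3.10.9 drew the figures. A gene was called at a difference of at least 10 percentile points. With 1 pooled list per group no test was made. The overlap code was tested on simulated data. All 9 members were named, of the pathway list the 4 genes of largest difference per mark and comparison, and the 3 nearest genes to ESR1 and PGR. The members and gene lists were chosen with earlier results of these data known. Alternatives were a strict threshold, other rankings, windows, merging of peaks within 1 kb and equal numbers of peaks. Promoter sequences and motifs were not analysed here.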

Additional observations from a re-analysis of the deposited data

How the results depend on the processing

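No paired analysis was possible because the replicates were pooled before peaks were called, and for the same reason no replicate could be left out. The share of all genes called was computed only for the complete lists ranked by fold enrichment with the call at 10 points. The share of all peaks overlapped was computed only for the complete lists with an overlap of at least 1 bp. Under other settings the counts of members called or with a peak, and the shares of member peaks overlapped, thus have no background beside them. These counts and shares do not show whether the members differed more than other genes did. With peaks limited to a fold enrichment of 5 or more and a −log10 p of 10 or more, 2 members for pregnant against cyclic circular muscle and 7 between the pregnant layers were called at the gene ends for H3K4me3, and 2 for H3K27ac between the circular muscles. Over the whole gene these were 4, 6 and 2, with ESR1, NR3C1, PGRMC1 and PGRMC2 the 4. H3K27ac then lay at the gene ends of 2 members in pregnant circular, 5 in longitudinal and 2 in cyclic muscle. The shares of member peaks overlapped became 92.3% and 100% for H3K4me3 of GD15M_CM in CD15M_CM and in GD15M_LM. For H3K27ac they became 76.9%, 46.2% and 45.5% for GD15M_CM in CD15M_CM, GD15M_CM in GD15M_LM and GD15M_LM in CD15M_CM. Where at least 50% of a peak had to be covered, the second was 22.1%. For GD15M_LM in CD15M_CM the share was 100% with peaks merged and 75.0% with equal numbers of peaks.

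A 1 kb window, the whole gene and ranking among genes each called 2 members for H3K4me3 between the circular muscles, and ranking among genes called 7 between the layers. Over the whole gene 3 were called for H3K27ac between the layers. A call at 20 points left 0, 1 and 0 members for H3K4me3 in GD15M_CM against CD15M_CM, GD15M_CM against GD15M_LM and GD15M_LM against CD15M_CM, and 1 and 3 for H3K27ac in the first of these and in the second. Ranking by peak length, added after seeing the data, left 0 for H3K4me3 in both comparisons with GD15M_LM, and 2, 3 and 1 for H3K27ac.

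Of 432 values of single members at the gene ends, 329 moved by less than the limit of 10 points, 95 by more and 8 that had been called changed sign. By peak length these were PGRMC1 (0.233) in H3K4me3 between the circular muscles, NR3C2 (0.437) in H3K4me3 between the layers, NR3C2 (0.328) in H3K27ac between the circular muscles, PGR (0.678), NR3C2 (0.216) and PGRMC1 (-19.2) in H3K27ac between the layers, and PGRMC2 (-1.34) in H3K27ac of GD15M_LM minus CD15M_CM. Over the whole gene ESR1 was 7.53 points higher in GD15M_LM than in CD15M_CM for H3K4me3. The window explains the last, since the main ESR1 domain lies inside the gene. Pooled lists give no error per gilt.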
